A study of Mus musculus with 12 samples.

Results

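The 35 genes described here encode 19 transporters and enzymes of glycolysis and 16 enzymes of the pyruvate dehydrogenase complex and the tricarboxylic acid (TCA) cycle. They were chosen by symbol, and all 35 were found among the 44345 gene names of each count table of dorsal root ganglia. These ganglia hold the cell bodies of sensory neurons, wrapped by satellite glia. The study compared C57BL/6 mice, 5 to 8 weeks old, after 10 days of housing in environmental enrichment (EE) or in standard housing (SH). RNA came from 4 groups of 3 libraries. The first pair of groups was large-diameter neurons (at least 30 micrometres across), cut by laser from stained sections of sciatic ganglia of EE mice and of SH mice, with 3 mice per library. The second pair was whole sciatic ganglia of EE mice and of SH mice, with 2 mice pooled per library. The deposited column names of the whole-ganglion libraries, and not those of the captured ones, also include "Sham"; no label says what this refers to, and whether it bears on the contrast between preparations was not tested. The captured and whole libraries also differed in RNA quality and in kit, and effects of capture cannot be told apart from those of the kit.

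Glycolysis splits glucose into pyruvate in the cytosol. Glucose enters through transporters of the Slc2a family, hexokinase traps it as a phosphate, phosphofructokinase commits it to breakdown, and aldolase splits it into the triose phosphates that the lower steps turn into pyruvate. Lactate dehydrogenase exchanges pyruvate with lactate, whereas the pyruvate dehydrogenase complex turns pyruvate into acetyl-CoA in mitochondria. The TCA cycle oxidises that acetyl-CoA and passes electrons to the respiratory chain. Several steps have isoforms with different tissue preferences. In nervous tissue Eno2 is the neuronal enolase, Aldoc is the aldolase that is abundant in brain, where astrocytes carry much of it, and Ldhb is the heart-type lactate dehydrogenase subunit.

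The whole-ganglion libraries held between 11343579 and 17036481 reads in genes, and the captured libraries between 19296230 and 29434351. The labels did not say whether libraries of a group came from separately housed cages, and p-values therefore speak of library-to-library spread alone. Among the captured libraries, EE replicates 2 and 3 and SH replicates 1 and 3 shared sequencing lane 3, EE replicate 1 was in lane 1 and SH replicate 2 was in lane 2. Captured SH replicate 2 stood apart by skeletal muscle transcripts, whose 13 listed markers summed to 2188 CPM (read counts scaled to library depth), against 54.8 to 128 CPM in the other captured libraries. The summed CPM of 14 large-neuron markers was 8879 to 11009 in captured SH libraries and 15071 to 16010 in whole SH libraries. A sum is weighted to the most abundant markers. The median log2 CPM of the same 14 markers ran the other way, at 7.36 to 7.58 in captured SH libraries and 7.26 to 7.32 in whole SH libraries. Capture and kit changed together in both comparisons. The 14 nociceptor markers, which belong mostly to small neurons, summed to 3982 to 4770 CPM in captured SH libraries and 3806 to 4282 CPM in whole SH libraries, and the 12 satellite glia markers summed to 2377 to 2645 CPM in captured SH libraries and 3147 to 3430 CPM in whole SH libraries. None of the markers in these lists was at 0 in every library of a group, so transcripts typical of other cells were present in the captured libraries.

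In captured large neurons no member passed the adjusted threshold of 0.05, but values above those of SH were frequent. The EE libraries lay above every SH library, without overlap, for 6 of 19 glycolysis members (31.6%) and 10 of 16 TCA members (62.5%), and below every SH library for none, whereas 10.2% of the 16186 genes tested lay above and 10.9% below in the same way. Only 3 genes in all were called at an adjusted p under 0.05 (0.0185%) by the edgeR quasi-likelihood test. At an unadjusted p under 0.05, 6 glycolysis members and 7 TCA members were higher in EE and 0 were lower, against 7.3% of all genes higher and 8.62% lower. The median log2 fold change was 0.061 for glycolysis members and 0.13 for TCA members, against -0.00059 for all genes tested. In whole ganglia no member was called, 1 gene in all was called (0.00631%), and 32 of 35 members had a log2 fold change within 0.1 of 0.

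**Figure D1:**
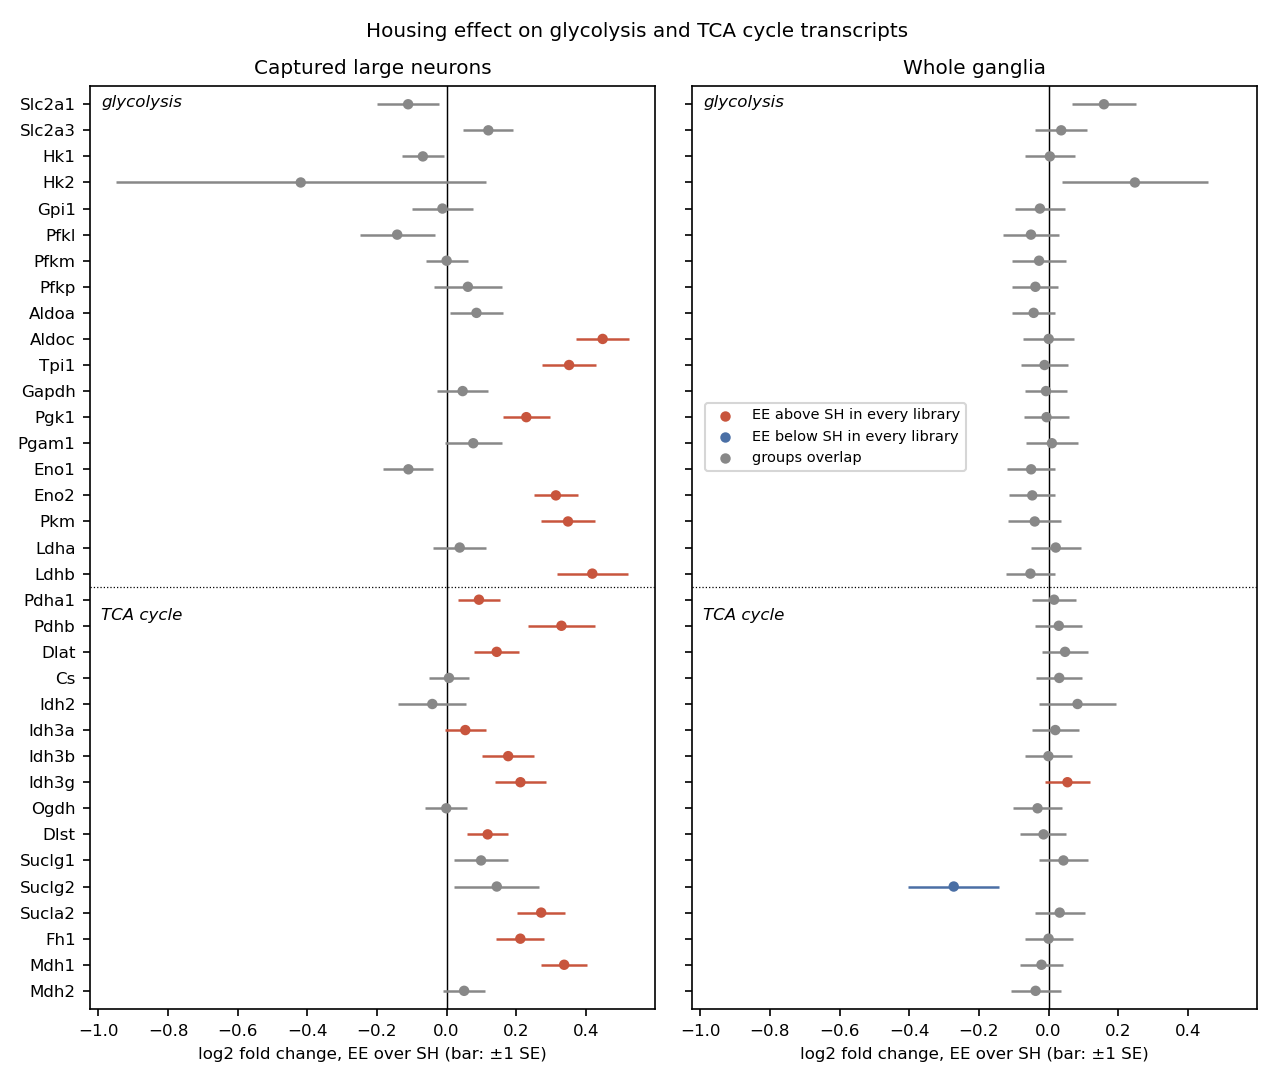
Log2 fold change of EE over SH for the 35 members, with glycolysis above the dotted line and the TCA cycle below it; points are edgeR estimates, bars are 1 SE, and colour marks members whose 3 EE and 3 SH libraries do not overlap. In captured large neurons (left) 16 members have every EE library above every SH library, and in whole ganglia (right) 1 member lies above (Idh3g) and 1 below (Suclg2).

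For glucose entry and the first steps of glycolysis the captured groups overlapped. Slc2a1, the widely expressed glucose transporter, had 32.9, 33.8 and 35.3 CPM in EE libraries, against 33.3, 40.3 and 36.6 CPM in SH libraries, a log2 fold change of -0.11 (SE 0.089). Slc2a3, the neuronal glucose transporter, ranged from 95.7 to 106 CPM in EE and from 90.5 to 99.9 CPM in SH, with overlap. Hk1, the main hexokinase of brain, had 377, 367 and 392 CPM in EE libraries and 382, 413 and 396 CPM in SH libraries (log2 fold change -0.068, SE 0.061). The 2 groups overlapped for each of these 3 genes, and for Gpi1, which interconverts glucose and fructose phosphates (log2 fold change -0.012, SE 0.088).

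Hk2, a hexokinase typical of muscle, had the lowest level per length of the members and the largest standard error in captured neurons. Captured EE libraries had 16.0, 3.35 and 3.53 CPM and captured SH libraries 8.92, 15.4 and 6.98 CPM. The high values were those of EE replicate 1 and SH replicate 2, which were both sequenced outside lane 3. Over all 6 libraries the log2 fold change was -0.42 with an SE of 0.53 (edgeR adjusted p = 0.747). Within lane 3, where 2 EE and 2 SH libraries can be compared, it was -1.21 with an SE of 0.20 and an edgeR adjusted p of 0.00508. Without EE replicate 1 it was -1.60 (SE 0.31, edgeR adjusted p = 0.0225). The muscle markers were at 54.8 CPM in EE replicate 1 and at 2188 CPM in SH replicate 2, so 1 of the high Hk2 libraries had muscle transcripts at the level of the other libraries. The part of the lane in this pattern was not tested.

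The phosphofructokinase subunits, which form the main control point of the pathway, did not separate the groups in captured neurons. Pfkm, the muscle-type subunit, had 218, 207 and 208 CPM in EE libraries and 218, 210.2 and 204 CPM in SH libraries, with a log2 fold change of 0.00 (SE 0.060). Pfkp, the platelet-type subunit, was 711, 544 and 553 CPM in EE and 571, 589 and 574 CPM in SH, with EE replicate 1 high and the other EE libraries below every SH library. Pfkl, the liver-type subunit, ran from 42.9 to 54.9 CPM in EE and from 48.7 to 59.2 CPM in SH.

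For aldolase the groups lay apart in one isoform and overlapped in the other. Aldoc had 95.4, 104 and 102 CPM in captured EE libraries, against 80.2, 68.6 and 72.3 CPM in captured SH libraries. Every EE library was above every SH library, and the log2 fold change of 0.45 (SE 0.077, 1.36-fold) had an edgeR adjusted p of 0.0898, the smallest of the 35 members. Aldoa, the muscle-type isoform and the most abundant member per length in captured SH libraries, had 1166, 1010.4 and 987 CPM in EE and 1048, 974 and 959 CPM in SH, with overlap (log2 fold change 0.086, SE 0.076). In whole ganglia Aldoc had 147, 170.1 and 158 CPM in EE libraries and 149.8, 166 and 159 CPM in SH libraries. Those whole-ganglion groups overlapped throughout, at a log2 fold change of 0.00 (SE 0.074).

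Triose phosphate isomerase and the steps below it divided into members whose captured groups lay apart and members whose groups overlapped. Tpi1, which interconverts the triose phosphates, had 218, 198 and 194 CPM in captured EE libraries and 172, 147 and 159 CPM in captured SH libraries. The groups did not overlap (log2 fold change 0.35, SE 0.077, edgeR adjusted p = 0.120). The end of Tpi1 overlaps Spsb2 on the other strand, and the strand setting of the counting is not known, so part of its reads could belong to either gene. Gapdh, which oxidises the next intermediate and is often used as a reference gene, had 393, 347 and 336 CPM in EE and 348, 359 and 337 CPM in SH. Its groups overlapped, at a log2 fold change of 0.046 (SE 0.072). Pgk1, the first step that yields ATP, was higher in every EE library, with 278, 257 and 249.6 CPM against 235, 215 and 219 CPM in SH libraries (log2 fold change 0.23, SE 0.068, edgeR adjusted p = 0.167). Pgam1, the next mutase, ran from 104 to 126 CPM in EE and from 105 to 109.9 CPM in SH.

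Enolase separated by isoform, as aldolase did. Eno2 had 396, 403 and 374 CPM in captured EE libraries and 317, 299.8 and 327 CPM in captured SH libraries, a log2 fold change of 0.31 (SE 0.063, edgeR adjusted p = 0.0960). Eno1, the widely expressed enolase, had 249.9, 215 and 219.9 CPM in EE and 249.7, 251 and 239 CPM in SH, a log2 fold change of -0.11 (SE 0.072). The Eno2 groups lay apart and the Eno1 groups overlapped through EE replicate 1. In whole ganglia Eno2 had 654, 613 and 631 CPM in EE and 619.9, 648 and 693 CPM in SH, with a log2 fold change of -0.047 (SE 0.066).

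Pyruvate kinase and lactate dehydrogenase close the pathway. Pkm, which makes pyruvate, had 1063, 1176 and 1139 CPM in captured EE libraries, against 944, 797 and 911 CPM in captured SH libraries. These groups did not overlap, and the log2 fold change was 0.35 (SE 0.076, edgeR adjusted p = 0.119). Ldhb had 148, 177 and 176 CPM in EE and 139, 108 and 127 CPM in SH (log2 fold change 0.42, SE 0.10, edgeR adjusted p = 0.129). The lowest EE library of Ldhb, replicate 1, was close to the highest SH library. Ldha, the muscle-type subunit, overlapped with 285, 242 and 246 CPM in EE and 259, 255 and 240.3 CPM in SH (log2 fold change 0.038, SE 0.076).

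**Figure D2:**
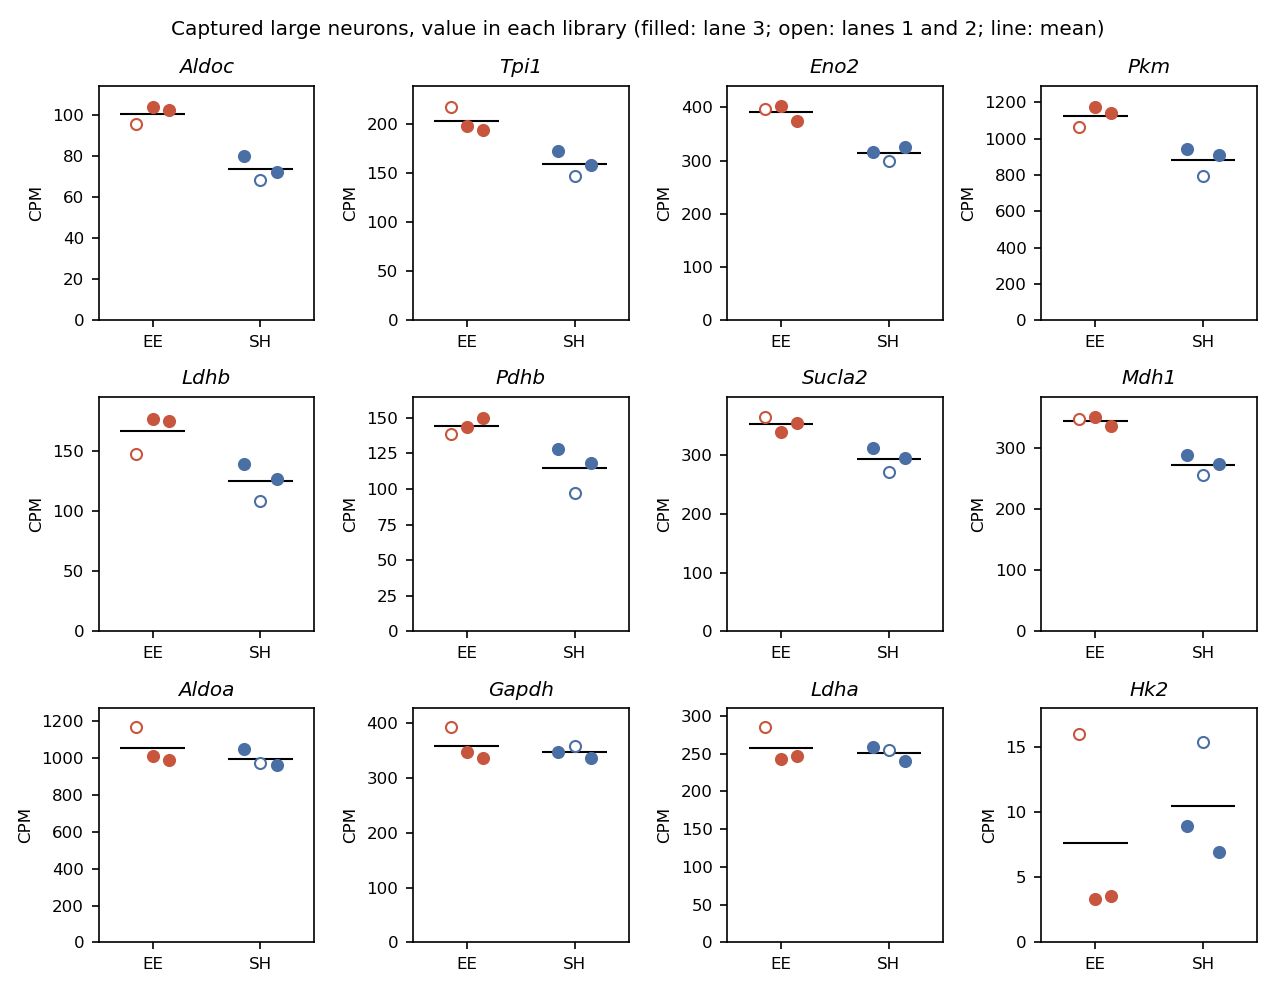
CPM in each captured library for 8 members with the smallest p and 4 others (Aldoa, Gapdh, Ldha, Hk2), EE left of SH; filled points were sequenced in lane 3, open points in lanes 1 and 2, and the line is the mean of 3. The upper 8 genes have every EE point above every SH point, Aldoa, Gapdh and Ldha overlap, and Hk2 is high in the open point of each group.

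Pairs of isoforms were also set against each other within each library as log2 ratios of reads per kilobase, which do not depend on library size. Aldoc over Aldoa was -3.63 ± 0.19 in captured EE libraries and -4.0 ± 0.063 in captured SH libraries (SD, n = 3 each), without overlap. Eno2 over Eno1 was 0.97 ± 0.12 in captured EE and 0.54 ± 0.097 in captured SH, again without overlap. Ldhb over Ldha was 0.30 ± 0.27 in captured EE and -0.090 ± 0.19 in captured SH, and here EE replicate 1, at -0.018, lay below SH replicate 1, at 0.032. In whole ganglia the same 3 ratios overlapped between EE and SH, with means of -3.43 and -3.47 for aldolase, 0.92 and 0.91 for enolase, and 0.32 and 0.40 for lactate dehydrogenase. Of the 8 pairs compared, 3 did not overlap in captured libraries (aldolase, enolase and the succinyl-CoA ligase pair given below), and the glucose transporter, hexokinase and both phosphofructokinase pairs overlapped along with lactate dehydrogenase. No such share was computed over other pairs of genes, and the members were chosen with earlier results known, so this count cannot be judged. A ratio shows only that the 2 isoforms differed unequally between housings.

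**Figure D3:**
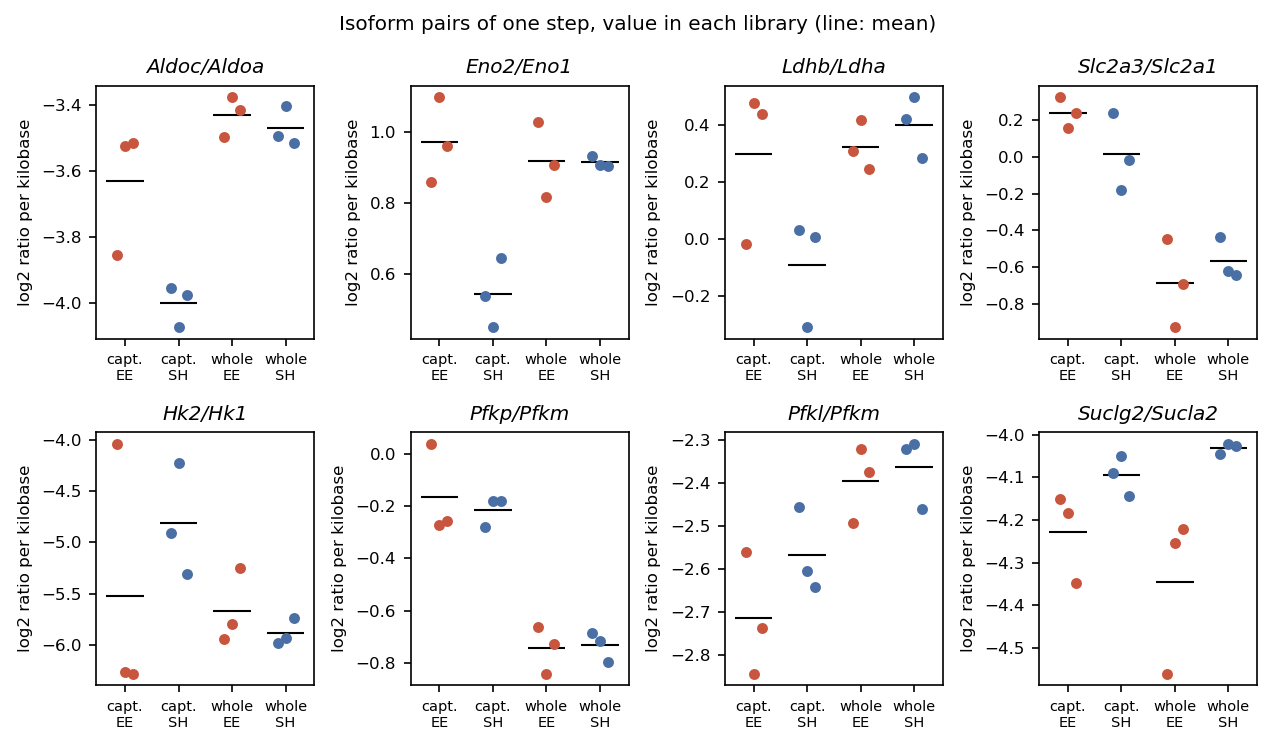
Log2 ratio, per kilobase, of isoforms of the same step in each library, for captured EE, captured SH, whole EE and whole SH; the line is the mean of 3 libraries. The Aldoc/Aldoa and Eno2/Eno1 ratios are higher in captured EE than in captured SH without overlap and overlap in whole ganglia, and Suclg2/Sucla2 is lower in EE in both preparations.

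Promoter sequence is shown for 4 glycolysis members whose RefSeq start coincides with the end of the annotated gene, to set a member's housing values beside its upstream bases. Eno2 and Ldhb are isoforms whose captured groups lay apart while those of their partners overlapped, the groups of Pgk1 lay apart as well, and those of Hk2 overlapped. Each line gives the 250 bases before the start on GRCm38.p6, read 5′ to 3′ on the gene's strand, from RefSeq. They are chr6:124769674-124769923 (minus strand) for Eno2, chr6:142507958-142508207 (minus strand) for Ldhb, chrX:106186850-106187099 (plus strand) for Pgk1 and chr6:82774455-82774704 (minus strand) for Hk2. Capitals mark ACGTG, or CACGT on the other strand, a form of the core that hypoxia-inducible factor is known to recognise. This form overlaps the CACGTG E-box, and other forms of the core, such as GCGTG, were not searched.
Eno2: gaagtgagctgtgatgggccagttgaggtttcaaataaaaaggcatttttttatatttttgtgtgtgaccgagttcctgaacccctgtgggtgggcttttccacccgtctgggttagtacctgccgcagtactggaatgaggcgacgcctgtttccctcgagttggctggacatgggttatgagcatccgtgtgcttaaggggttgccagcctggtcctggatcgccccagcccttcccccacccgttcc
Ldhb: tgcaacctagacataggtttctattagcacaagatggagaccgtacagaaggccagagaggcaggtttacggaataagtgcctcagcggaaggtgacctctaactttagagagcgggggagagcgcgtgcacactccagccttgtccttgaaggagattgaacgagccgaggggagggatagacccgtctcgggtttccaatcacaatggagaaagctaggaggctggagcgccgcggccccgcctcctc
Pgk1: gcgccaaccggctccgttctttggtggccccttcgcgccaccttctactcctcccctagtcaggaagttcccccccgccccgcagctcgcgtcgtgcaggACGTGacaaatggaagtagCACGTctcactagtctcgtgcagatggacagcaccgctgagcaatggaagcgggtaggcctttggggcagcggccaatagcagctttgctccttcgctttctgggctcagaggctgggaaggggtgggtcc
Hk2: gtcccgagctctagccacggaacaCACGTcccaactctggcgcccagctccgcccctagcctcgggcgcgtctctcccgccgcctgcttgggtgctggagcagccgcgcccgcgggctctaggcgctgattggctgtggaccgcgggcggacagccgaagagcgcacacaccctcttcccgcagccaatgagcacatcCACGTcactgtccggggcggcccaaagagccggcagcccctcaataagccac
Eno2 and Ldhb held 0 matches to ACGTG or CACGT in this window, and Pgk1 and Hk2 held 2 each. Among the 33 members with a RefSeq promoter (all but Slc2a3 and Idh3a), 12 (36.4%) held the motif in at least 1 listed start, against 18.5% of 27025 genes. Of the 15 members with every captured EE library above every SH library, 5 (33.3%) held it, and of the 18 others, 7 (38.9%). Genes with several listed starts had more bases searched. The 27025 genes were not matched to the members for base composition or expression level, and the difference between the shares was not tested. A match is a run of letters, not a measured binding site.

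The 3 members from the pyruvate dehydrogenase complex had every captured EE library above every captured SH library. Pdha1, the catalytic alpha subunit, had 469.9, 425 and 451 CPM in EE and 422, 417 and 423 CPM in SH, a log2 fold change of 0.093 (SE 0.061, edgeR adjusted p = 0.494). Pdhb, the beta subunit, had 139, 143 and 149.7 CPM in EE and 128, 97.2 and 119 CPM in SH (log2 fold change 0.33, SE 0.095, edgeR adjusted p = 0.162). Dlat, the acetyltransferase core, ran from 123 to 133 CPM in EE and from 113 to 120.0 CPM in SH (log2 fold change 0.14, SE 0.064). None of the 3 passed the threshold. Pdhx, a further component of the complex that was singled out after its values were seen, overlapped, at 37.7 to 42.5 CPM in EE and 36.8 to 39.8 CPM in SH. Dld, another component named after its values were seen, lay apart, at 201 to 213 CPM in EE and 178 to 194 CPM in SH. Its log2 fold change was 0.16 (SE 0.063), and it was not called.

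At the entry of the cycle itself the groups of Cs and Idh2 overlapped, and those of the Idh3 subunits lay apart. Cs, citrate synthase, had 245, 251 and 249.8 CPM in captured EE libraries and 247, 252 and 243 CPM in captured SH libraries, with a log2 fold change of 0.0068 (SE 0.057). Of the NAD-dependent isocitrate dehydrogenase, Idh3a (catalytic) had 130.2, 129 and 134 CPM in EE and 126, 126 and 127 CPM in SH, and the log2 fold change of 0.054 (SE 0.059) was smaller than its standard error although the groups did not overlap. Idh3b and Idh3g, the other subunits, were also higher in each EE library, at log2 fold changes of 0.18 (SE 0.075) and 0.21 (SE 0.072). Idh2, the NADP-dependent mitochondrial enzyme, had 15.1 to 15.5 CPM in EE and 15.0 to 16.8 CPM in SH.

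Ogdh, the first subunit of the 2-oxoglutarate dehydrogenase complex, had 261, 270.2 and 278 CPM in captured EE libraries and 271, 277 and 262 CPM in captured SH libraries, at a log2 fold change of -0.00092 (SE 0.060). Dlst, the second subunit, was 209 to 219 CPM in EE and 194 to 201 CPM in SH (log2 fold change 0.12, SE 0.058). One subunit of this complex overlapped between housings and the other lay apart, and neither was called.

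Succinyl-CoA ligase pairs an alpha subunit, Suclg1, with an ATP-forming beta subunit, Sucla2, or a GTP-forming one, Suclg2. Sucla2 had 364, 339 and 355 CPM in captured EE libraries and 311, 272 and 294 CPM in captured SH libraries, without overlap (log2 fold change 0.27, SE 0.068, edgeR adjusted p = 0.129). Suclg1 (60.3 to 65.0 CPM in EE and 53.4 to 61.7 CPM in SH) and Suclg2 (9.96 to 11.7 CPM in EE and 9.37 to 10.4 CPM in SH) overlapped. Relative to Sucla2, Suclg2 was lower in EE in both preparations without overlap, with log2 ratios of -4.23 ± 0.11 in captured EE and -4.09 ± 0.047 in captured SH, and of -4.35 ± 0.19 in whole EE and -4.03 ± 0.013 in whole SH (SD, n = 3 each).

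Of the last steps, Fh1 and Mdh1 lay apart between housings and Mdh2 met, and the adjusted p of Mdh1 equalled that of Eno2. Fh1, fumarase, was 64.4 to 70.5 CPM in captured EE libraries and 56.4 to 59.3 CPM in captured SH libraries (log2 fold change 0.21, SE 0.069). Mdh1, the cytosolic malate dehydrogenase of the malate-aspartate shuttle, had 348, 351 and 337 CPM in EE and 289, 255 and 275 CPM in SH, a log2 fold change of 0.34 (SE 0.065, edgeR adjusted p = 0.0960). Mdh2, its mitochondrial counterpart in the cycle, had 120.0, 117 and 115 CPM in EE and 113, 113 and 115 CPM in SH (log2 fold change 0.050, SE 0.060). The Mdh1 groups were apart by more than the range within either group, whereas those of Mdh2 met at 115 CPM.

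Several members rest on which captured libraries are compared. In the 4 libraries of lane 3, edgeR called 658 of 16199 genes (1.88% higher in EE and 2.18% lower), and among them 4 glycolysis members and 1 TCA member higher and 1 lower. The higher ones were Aldoc (log2 fold change 0.44, adjusted p = 0.00459), Eno2 (0.27, 0.0218), Pkm (0.32, 0.00383), Ldhb (0.41, 0.00388) and Mdh1 (0.29, 0.0155), and the lower one was Hk2. The same 6 genes were called without EE replicate 1, where 602 genes were called in all (3.64%). In lane 3 the glycolysis list had 7 positive and 12 negative fold changes with a median of -0.013, and the TCA list 15 positive and 1 negative with a median of 0.075. Without SH replicate 2, the library with muscle transcripts, 0 genes were called (0%), the list medians were 0.069 and 0.11, and 6 glycolysis and 5 TCA members had an unadjusted p under 0.05 with EE higher and 0 with EE lower, against 4.5% of all genes higher and 4.83% lower. DESeq2 called 8 of the members higher over all 6 libraries (Aldoc, Tpi1, Eno2, Pkm, Ldhb, Pdhb, Sucla2 and Mdh1) among 505 genes (1.32% higher and 1.80% lower).

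In the same captured libraries the summed CPM of large-neuron, nociceptor and satellite glia markers lay apart between housings. Medians over the markers of each of these lists overlapped. The median log2 CPM of large-neuron markers was 7.34 to 7.64 in EE and 7.36 to 7.58 in SH. For satellite glia markers it was 6.03 to 6.38 in EE and 6.21 to 6.38 in SH. Overlap of the medians cannot show which markers carry a sum, because the share of each marker in it was not computed. By the counts given next, most large-neuron markers were higher and most nociceptor markers lower at an unadjusted p under 0.05. Large-neuron markers summed to 11256 to 15467 CPM in EE and 8879 to 11009 CPM in SH. At an unadjusted p under 0.05, 8 of 14 were higher, and 0 were called (Nefl, a neurofilament subunit, 0.47 on the log2 scale, SE 0.10). Over all genes tested in these libraries 7.3% were higher and 8.62% lower at that level. Nociceptor markers summed to 3104 to 3902 CPM in EE and 3982 to 4770 CPM in SH, with 10 of 14 lower and 1 higher at that level and 1 called lower. Satellite glia markers summed to 2925 to 3213 CPM in EE and 2377 to 2645 CPM in SH, with 5 of 12 higher at that level, of which Fabp7, a glial fatty acid binding protein, was called (log2 fold change 0.80, SE 0.094, edgeR adjusted p = 0.0322). Schwann cell markers summed to 1029 to 1323 CPM in EE and 1150 to 1442 CPM in SH, macrophage markers to 49.6 to 58.4 CPM in EE and 37.4 to 55.4 CPM in SH, and erythrocyte markers to 46.8 to 61.0 CPM in EE and 44.8 to 59.4 CPM in SH. In whole ganglia the large-neuron sum ran the other way, at 13893 to 14679 CPM in EE and 15071 to 16010 CPM in SH without overlap, and the satellite glia (2834.5 to 3255 CPM in EE, 3147 to 3430 CPM in SH) and nociceptor sums (4008 to 4160 CPM in EE, 3806 to 4282 CPM in SH) overlapped. In these bulk libraries more cells of a type and more RNA per cell cannot be told apart. The part of these cells in the values of the members was not tested.

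**Figure D4:**
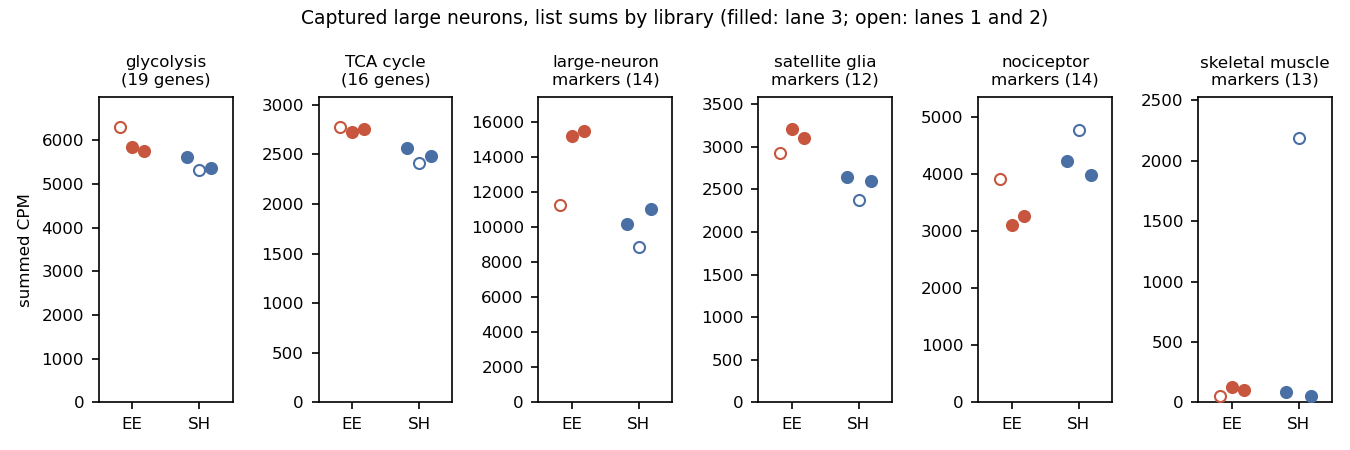
Summed CPM of the glycolysis and TCA members and of 4 marker lists in each captured library, EE left of SH; filled points were sequenced in lane 3 and open points in lanes 1 and 2. The TCA sum is 2726 to 2778 CPM in EE and 2415 to 2564 CPM in SH, large-neuron and satellite glia sums are higher in EE, the nociceptor sum is lower, and one SH library has a muscle sum of 2188 CPM.

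Whole ganglia, in which all cell types are present, showed the members at nearly the same level in both housings. The median log2 fold change was -0.011 for glycolysis and 0.018 for TCA members, against 0.0028 for all 15845 genes tested. In this fit, which did not pair libraries by lane, no member reached an unadjusted p of 0.05, against 2.9% of all genes. No member was called by any alternative run in whole ganglia. The EE libraries lay above all SH libraries for Idh3g alone and below them for Suclg2 alone, against 3.19% and 4.29% of all genes. The summed CPM of the 19 glycolysis members was 8344 to 8815 in EE and 8265 to 9194 in SH, and that of the 16 TCA members was 3131 to 3240 in EE and 3165 to 3187 in SH.

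The 8 members with the smallest p in whole ganglia began with Suclg2, with 7.74, 9.36 and 9.78 CPM in EE libraries and 11.8, 10.5 and 10.2 CPM in SH libraries (log2 fold change -0.27, SE 0.13, edgeR adjusted p = 1.00). Slc2a1 had 68.7, 82.6 and 79.9 CPM in EE and 60.2, 72.3 and 75.0 CPM in SH (log2 fold change 0.16, SE 0.093). Hk2 had 3.33, 3.76 and 5.30 CPM in EE and 3.00, 3.32 and 4.15 CPM in SH (0.25, SE 0.21). The groups of Slc2a1 and Hk2 overlapped. Idh3g had 104, 104 and 105 CPM in EE and 97.0, 103 and 102 CPM in SH (0.054, SE 0.065). Idh2 (16.1, 19.02 and 16.1 CPM in EE, 15.4, 18.3 and 14.9 CPM in SH), Ldhb (269, 314 and 287 CPM in EE, 296, 307 and 299 CPM in SH), Dlat (137, 136 and 133 CPM in EE, 135, 132 and 126 CPM in SH) and Eno1 (367, 397 and 385 CPM in EE, 371, 395 and 423 CPM in SH) made up the rest, each with overlapping groups. Whole-ganglion replicates of the same number shared a lane, and within every such pair EE was above SH for Slc2a1, Hk2, Dlat, Cs, Idh2 and Idh3g and below it for Suclg2. These are 2 of 19 glycolysis members and 4 of 16 TCA members above, and 1 TCA member below, against 11.8% of all genes above and 11.8% below. With the replicate number as a block edgeR called 0 members. In that paired fit Slc2a1 had an unadjusted edgeR p of 0.0273 (adjusted p = 0.848) and Suclg2 of 0.0441 (adjusted p = 0.929). The share of all genes at that unadjusted level in the paired fit is not given here.

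Among the remaining glycolysis members of whole ganglia, Hk1 had 293, 298 and 288 CPM in EE and 271, 289 and 317 CPM in SH. Pfkm had 183, 198 and 183 CPM in EE and 177, 187 and 212 CPM in SH. Aldoa had 1398, 1492 and 1423 CPM in EE and 1424, 1481 and 1538 CPM in SH. For these 3 genes the EE values fell inside or next to the range of SH. Gapdh had 1253, 1248 and 1221 CPM in EE and 1204, 1251 and 1286 CPM in SH. Pkm had 1206, 1388 and 1267 CPM in EE and 1200.2, 1353 and 1416 CPM in SH. Ldha had 413, 447 and 461 CPM in EE and 419.6, 414 and 468 CPM in SH, and these 3 genes overlapped too.

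TCA members of whole ganglia were as close. Pdha1 had 327, 309.9 and 327 CPM in EE and 321, 325 and 307 CPM in SH. Cs had 251, 247 and 264 CPM in EE and 239, 245 and 261 CPM in SH. Idh3a had 159.6, 147 and 160.5 CPM in EE and 159, 154 and 148 CPM in SH. Each of these groups overlapped, with log2 fold changes of 0.016 (Pdha1), 0.031 (Cs) and 0.019 (Idh3a). Ogdh had 263, 244 and 254 CPM in EE and 240.1, 263 and 275 CPM in SH. Mdh1 had 581, 609.5 and 619.9 CPM in EE and 626, 602 and 608 CPM in SH. Mdh2 had 257, 299 and 284 CPM in EE and 274, 291 and 298 CPM in SH, so the 2 malate dehydrogenases did not separate the housings in whole ganglia.

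Whether the housing effect differed between captured neurons and whole ganglia was tested as an interaction over the 12 libraries. This fit used 1 estimate of spread per gene for both preparations and did not pair libraries by lane. In separate fits the biological coefficient of variation was 0.0741 in whole ganglia and 0.121 in captured neurons. No member and none of the 17412 genes passed (0 called, 0%), although 921 genes (5.29%) were higher and 1113 (6.39%) lower at an unadjusted p under 0.05, and DESeq2 called 119 (0.683%). Of the members, 6 glycolysis and 5 TCA genes had an unadjusted p under 0.05 with the larger effect in captured neurons, and 0 the other way. The difference of log2 fold changes was 0.44 for Aldoc (SE 0.11, edgeR adjusted p = 0.206), 0.35 for Mdh1 (SE 0.089, 0.208), 0.35 for Eno2 (SE 0.091, 0.208), 0.46 for Ldhb (SE 0.13, 0.236) and 0.35 for Tpi1 (SE 0.10, 0.239). DESeq2 called Aldoc, Eno2 and Mdh1 in this contrast. With only the captured libraries of lane 3, edgeR called Ldhb higher and Hk2 lower among 171 genes (0.988%).

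Levels were compared between genes as RPKM (reads scaled to gene length and library depth), with lengths taken from the authors' whole-ganglion table. Distances between genes rest on those lengths, such as 4156 bases for Gapdh, 2613 for Pkm and 2769 for Aldoa. Mean CPM of these genes in whole SH libraries were 1247 (Gapdh), 1323 (Pkm) and 1481 (Aldoa). In captured SH libraries Aldoa (359 ± 17.3) and Pkm (338 ± 29.5) stood above the rest, followed by Pdha1 (112 ± 0.844), Mdh1 (106 ± 6.51) and Pgk1 (98.9 ± 4.80; SD, n = 3 each). Aldoa and Pkm, and likewise Pdha1 and Mdh1, differed by less than their SDs added together, whereas Pkm and Pdha1 lay far apart. In whole SH libraries Aldoa (535 ± 20.7) and Pkm (506 ± 42.5) were again highest, followed by Gapdh (300.1 ± 9.85), Tpi1 (262 ± 16.6) and Mdh1 (237 ± 4.94). Hk2 was lowest in both, at 1.74 ± 0.738 in captured and 0.582 ± 0.0990 in whole SH libraries.

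Between preparations, with no test because the kit changed with the capture, 15 of 19 glycolysis members and 13 of 16 TCA members had a lower level per length in captured than in whole SH libraries. The median ratio of captured over whole was 0.621 for glycolysis and 0.858 for TCA members. Gapdh was at 83.6 ± 2.66 in captured and 300.1 ± 9.85 in whole SH libraries, and Tpi1 at 71.7 ± 5.68 and 262 ± 16.6, the lowest ratios of the 35 (0.279 and 0.274). Hk1 (46.3 ± 1.78 in captured, 34.1 ± 2.72 in whole), Pfkp (61.2 ± 1.05 and 38.7 ± 2.09) and Pdha1 (112 ± 0.844 and 84.6 ± 2.59) were higher in captured libraries. For Tpi1 the ratio was 0.353 in EE libraries, and for Eno2 0.618 in EE and 0.481 in SH.

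**Figure D5:**
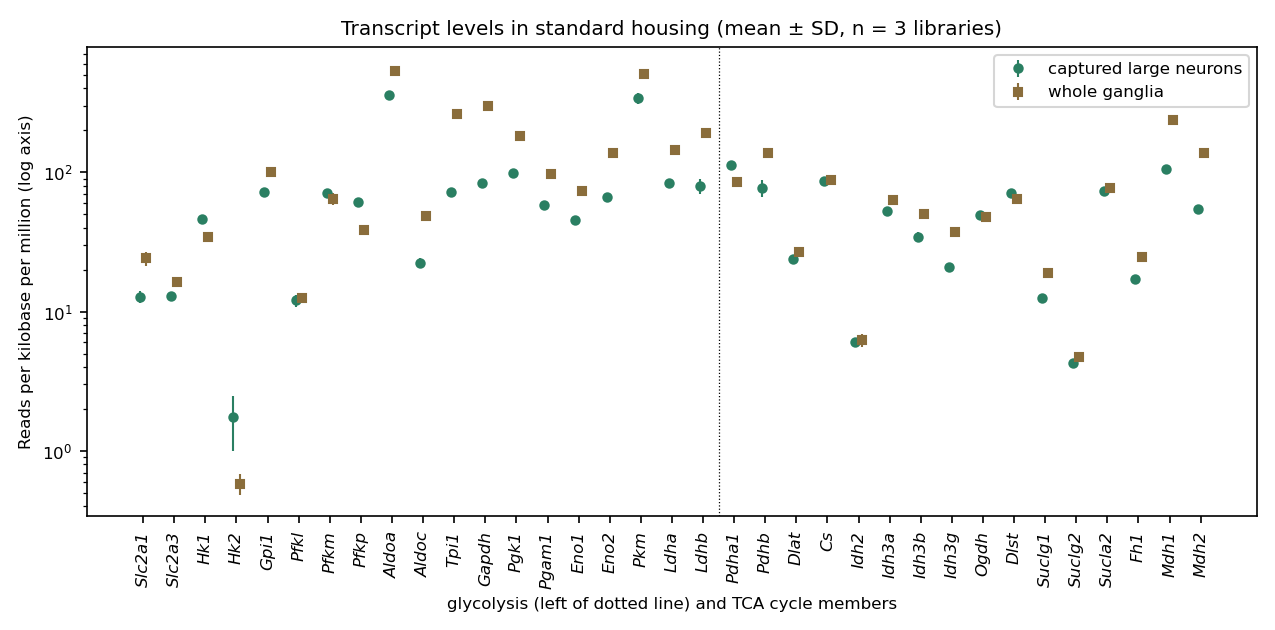
Mean level per length (RPKM, log axis, ± SD, n = 3) of the 35 members in SH libraries of captured large neurons (circles) and whole ganglia (squares), glycolysis left of the dotted line. Aldoa and Pkm are highest and Hk2 lowest in both, and Gapdh and Tpi1 show the widest gap, with whole ganglia above.

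Other genes of the same routes were listed apart from the members. In captured neurons 17 further glycolysis genes were tested, of which 3 were higher and 3 lower in EE at an unadjusted p under 0.05, with a median log2 fold change of -0.066. The smallest p belonged to Bpgm, the bisphosphoglycerate mutase abundant in erythrocytes (log2 fold change 0.30, SE 0.10), Eno3, the muscle enolase (-1.04, SE 0.35), and Galm, a galactose mutarotase (0.68, SE 0.25). Eno3 was at 12.7 CPM in SH replicate 2, the library with muscle transcripts, and at 3.31 to 5.39 CPM in the other captured libraries. All 30 further genes of pyruvate oxidation, the cycle and its shuttles were tested, of which 9 were higher and 1 lower at that level, with a median of 0.15. Over all genes tested in captured neurons these shares were 7.3% higher and 8.62% lower, and the median was -0.00059. Of the further TCA genes, those with the smallest p included Got1, the cytosolic aspartate aminotransferase of the malate-aspartate shuttle (0.27, SE 0.061) and Gpd1, a glycerol phosphate dehydrogenase (0.44, SE 0.13). No gene of either list was called.

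In whole ganglia the further lists had 1 of 18 glycolysis genes and 1 of 30 TCA genes higher at an unadjusted p under 0.05 and 0 lower, against 1.34% of all genes higher and 1.55% lower, and none was called. Bpgm again had every EE library above every SH library, with 26.1 to 30.1 CPM in EE and 23.2 to 24.5 CPM in SH (log2 fold change 0.25, SE 0.083). Slc2a4, the insulin-responsive glucose transporter (0.69, SE 0.33), and Pfkfb4, a regulator of phosphofructokinase (0.16, SE 0.084), came next. Of the TCA list, Pdk1, a kinase that switches pyruvate dehydrogenase off, was at 0.17 (SE 0.077), Me3, a malic enzyme, at 0.20 (SE 0.14), and Pdk2, another such kinase, at -0.09 (SE 0.078). In the same libraries 4 of 7 erythrocyte markers, one of them Bpgm, were higher in EE at an unadjusted p under 0.05; their part in the Bpgm value was not tested.

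Of the members with the smallest p, Eno2 and Tpi1 lie close together on chromosome 6 (mm10), at chr6:124760053-124769673 and chr6:124810586-124814296, with 40912 bases between them. Gapdh follows on the same chromosome at chr6:125161715-125166467, and Ldhb lies at chr6:142490249-142507957, all on the minus strand. Aldoc is at chr11:78322968-78327781 on the plus strand and Mdh1 at chr11:21556787-21572367 on the minus strand. Many glycolysis genes, Gapdh above all, have near-identical processed pseudogenes, and reads that match several places were kept out of the counts (11.03% to 15.2% of captured and 8.49% to 8.99% of whole read pairs), so levels of such genes carry that uncertainty.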

How the data were processed

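RNA sequencing of 12 libraries was deposited as 2 tables of read counts per gene (44345 names each). Per the submitters' processing notes, the tools were TopHat2 2.0.12, Bowtie2 2.2.3 and HTSeq 0.6.0 with mm10; the strand setting of the counting is not given in the sources used here. The authors also deposited FPKM values for whole ganglia. The second captured table, deposited under the same name, held a signal in which each library's counts were multiplied by 1 constant, with no division by gene length. It therefore was not read as FPKM.

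The deposited counts were tested per preparation with edgeR 4.0.16 (R 4.3.3; filterByExpr, TMM, quasi-likelihood F test, Benjamini-Hochberg adjustment over all genes tested, threshold 0.05). The biological coefficient of variation was 0.0741 in whole ganglia and 0.121 in captured neurons. CPM are TMM-scaled. Standard errors are on the log2 scale. Summary rows (no feature 28.0% to 36.3% of captured and 47.1% to 47.6% of whole reads; not unique) were left out of library sizes. Gene lengths for levels were those implied by the authors' FPKM. All tests ran first on simulated counts. The members and the lists were chosen with earlier results of these data known. Values per library were given, by rule, for the 8 members with the smallest p in each preparation and 16 fixed members, for 5 members in the difference, and up to 3 genes of each other list. A further gene that this rule names is not reported here.

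Alternatives were DESeq2 1.42.0, limma 3.58.1, other scalings and filters, length and GC correction, lane 3 alone, each library left out and a replicate block. Whole-ganglion replicates of the same number shared a lane (same-number correlations of deviations 0.329, 0.141 and 0.111), so the numbers pair these libraries. Captured ones (0.086, -0.002 and 0.113) shared a lane only for replicate 3, in lane 3, and otherwise only share a number. No pair of libraries of the same preparation and housing agreed within sampling noise (chi-square per degree of freedom 3.95 to 21.5), and other pairs were not compared.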

Additional observations from a re-analysis of the deposited data

How the results depend on the processing

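No member was called in whole ganglia under any alternative run there, where the total of genes called was 0 with library size alone and with limma on the second table, 48 with no filter, 32 with the replicate block, 20 with length and GC correction in that block, and 0 to 2 with each library left out. In captured neurons the replicate block called 0 genes and 0 members in either list (with length and GC correction in the block, 1 gene), against the 3 genes and 0 members without it. Blocking on the lane shared by whole-ganglion replicates changed no member's call.

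Captured counts moved with the tool and the libraries. DESeq2 called 505 genes, with 5 glycolysis and 3 TCA members higher, and no filter gave 902 genes also with 5 and 3. Testing genes with a mean log2 CPM of 3 or more left 1 gene. Limma on the second table called 168 genes with 3 and 1 members higher (1 added), 55 with 1 glycolysis member (0.1 added) and 306 with 5 and 1 (no filter). Lane 3 alone called 658 genes (4 glycolysis members higher, 1 lower, 1 TCA member higher), and 745 with length and GC correction (5, 1 and 1). Leaving out 1 library gave 0 to 602 genes, 0 to 4 glycolysis members higher, 0 to 1 lower and 0 to 1 TCA member higher. The highest numbers were those without EE replicate 1. For the difference, DESeq2 called 119 genes (2 glycolysis members and 1 TCA member higher), no filter 457 (2 glycolysis members), the minimum log2 CPM of 3 called 1, lane 3 of the captured libraries 171 (1 higher, 1 lower), and single libraries left out 0 to 233 (0 to 2 glycolysis members higher, 0 to 1 lower). The causes were not tested.

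Over the 20 alternatives Aldoc ran from 0.40 to 0.51 on the log2 scale in captured neurons, with adjusted p from 2.61e-05 to 0.378 (called in 8), Mdh1 from 0.27 to 0.38 (called in 7), Eno2 from 0.27 to 0.34 (7), Pkm from 0.28 to 0.40 (7), Ldhb from 0.33 to 0.50 (6), Tpi1 from 0.24 to 0.41 (4), Pdhb from 0.22 to 0.42 (2) and Sucla2 from 0.20 to 0.32 (2). Members near 0 changed sign without being called. In captured neurons, log2 fold changes became 0.0033, 0.0035, 0.0060, 0.0067, 0.010, 0.033, 0.041 and 0.056 for Ogdh, 0.00064 for Hk1, -0.026, -0.022, -0.0064 and -0.0063 for Pfkm, -0.0085 and -0.0083 for Cs, -0.0066 and -0.00053 for Aldoa, -0.0022 for Gapdh, and -0.037 and -0.031 for Ldha. In whole ganglia they became -0.013, -0.0097, -0.0096, -0.0016 and -0.00037 for Aldoc, -0.0073, -0.0066 and -0.0045 for Hk1, and -0.0022 and -0.0020 for Pdha1. With each captured library left out, ranges crossing 0 were -0.024 to 0.026 (Pfkm), -0.025 to 0.090 (Gapdh), -0.041 to 0.089 (Ldha), -0.0041 to 0.019 (Cs) and -0.024 to 0.022 (Ogdh). With each whole library left out they were -0.048 to 0.066 (Hk1), -0.082 to 0.050 (Pfkm), -0.055 to 0.053 (Aldoc), -0.031 to 0.015 (Gapdh), -0.10 to 0.012 (Pkm), -0.013 to 0.078 (Ldha), -0.0091 to 0.041 (Pdha1), -0.0026 to 0.18 (Idh2), -0.0085 to 0.058 (Idh3a), -0.084 to 0.013 (Ogdh), -0.040 to 0.0073 (Mdh1) and -0.088 to 0.020 (Mdh2).

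With 3 libraries a group, shifts as large as 0.45 (Aldoc, SE 0.077) and 0.34 (Mdh1, SE 0.065) were not called over all 6 captured libraries, so smaller ones may be missed. The length and GC correction, and the lane comparison joined to it or to the difference, were chosen after seeing the data.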
